A study of Mus musculus with 12 samples.

Results

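Matrix metalloproteinases, their tissue inhibitors, the ADAMTS proteases, the ADAMTS-like proteins and the lysyl oxidases were followed through 12 RNA-seq libraries of adipocytes grown from mice with wild-type or altered PPARγ. The genes were taken by symbol from the deposited count table, as each row named Mmp, Timp, Adamts, Adamtsl or Loxl with a number, plus Lox itself. Of the 55573 genes of the table, 56 matched, and the 46 with at least 10 counts summed over the 12 libraries are the members described here. They were 16 matrix metalloproteinases (MMP), 4 tissue inhibitors of metalloproteinases (TIMP), 16 ADAMTS proteases, 5 ADAMTS-like genes (ADAMTSL) and 5 lysyl oxidases (LOX). The count minimum fell between Adamts13, with 10 counts in all, and Adamts16 and Mmp21, with 8 each.

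The cells came from the stromal vascular fraction of inguinal fat, which is what remains of digested tissue once the floating adipocytes are removed, and were turned into adipocytes in culture. Donors were C57BL/6 J mice, either wild type (WT) or homozygous for a germline substitution of threonine 166 of PPARγ made by CRISPR-Cas9. It was changed to alanine in T166A (TA) and to aspartate in T166D (TD). The WT mice were littermates from heterozygous crosses. Alanine cannot be phosphorylated, and aspartate carries a negative charge like a phosphate. Each genotype had 4 libraries. All cells received insulin (850 nM), triiodothyronine (1 nM), IBMX (0.5 mM), indomethacin (125 nM) and dexamethasone for 4 days, then insulin and triiodothyronine alone, and were harvested on day 8. The substitution was present in each cell type of the animal and throughout its life, so a culture could differ in its starting cells as well as in its adipocytes. Age and sex of the donors were not given. Nothing in the labels says that the libraries came from separate animals, so the p-values measure the spread between these libraries, which may be technical.

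MMPs are zinc proteases that cut collagens and other matrix proteins, either secreted or held at the cell surface, and TIMPs block them. ADAMTS proteases are secreted relatives that trim procollagen or cut proteoglycans, whereas ADAMTS-like proteins lack the protease part and bind microfibrils. Lysyl oxidases act in the opposite direction, oxidizing lysines in collagen and elastin so that the fibres become cross-linked. Fibroblasts and adipocyte progenitors are the main makers of these proteins in fat, and the matrix is rebuilt as a fibroblast-like progenitor rounds up into an adipocyte.

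Depth ran from 16553324 to 20324286 counts per library. The adipocyte markers, led by Fabp4, were expressed in each library, but their summed level was 25965 to 29250.0 counts per 1000000 counts (CPM) in WT, 23775 to 31288 CPM in TA and 17877 to 20417 CPM in TD. In the test, 12 of 14 were lower in TD than in WT. Fibroblast and preadipocyte markers, led by Col3a1, summed to 10750.0 to 14249 CPM in WT, 12294 to 21881 CPM in TA and 18504 to 27024 CPM in TD. Of 13 tested, 11 were higher in TD than in WT, 8 in TA than in WT and 5 in TD than in TA. Skeletal muscle markers, led by Myh1, were highest in TD replicates 3 and 4, at 259.9 and 151 CPM against 4.76 to 22.6 CPM in WT. TA replicate 2, at 79.1 CPM, TD replicate 2, at 66.5 CPM, and TA replicate 3, at 32.1 CPM, were also above each WT library. Of 10 tested, 9 were higher in TD than in WT and 6 in TA than in WT, and Pax7 of muscle stem cells had 0 counts. Higher in TD than in WT were also 7 of 8 endothelial markers, 6 of 8 smooth muscle and pericyte markers (1 was lower), 2 of 4 tested mesothelial markers and 2 of 12 macrophage markers. In TA against WT these counts were 4 of 8, 4 of 8, 0 of 4 and 0 of 12. Levels in CPM are counts scaled by the effective library size, and they follow each gene across libraries but do not correct for gene length.

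A run of 10 MMP genes stands on chromosome 9 with no other protein-coding gene between them. Their order is Mmp13, Mmp12, Mmp1b, Mmp3, Mmp1a, Mmp10, Mmp8, Mmp27, Mmp20 and Mmp7, from 7272514 to 7699585 in GRCm38. Of these, 5 had enough reads to be tested. Mmp3, Mmp13 and Mmp12 were the members whose 300-base promoter window (250 bases before and 50 after the RefSeq start site) held the AP-1 word TGANTCA, which reads alike on both strands. Promoter windows were at hand for 29 of the 46 members, 31 windows in all. The word was in 3 of the 31, beside 7.81% of the 32851 mouse windows of the same length. The 100 bases before the start are shown for these 3 as neighbours that hold the word and were each higher in TD than in TA. They are RefSeq sequences on GRCm38.p6, plus strand, 5′ to 3′, with the AP-1 word in capitals. For Mmp12 the window of the second of 2 listed starts is shown, and that of the first held no AP-1 word. Mmp8, the other gene of the run that was higher in TD than in TA, held none in its window, nor did Mmp27.
Mmp13, chr9:7272414-7272513: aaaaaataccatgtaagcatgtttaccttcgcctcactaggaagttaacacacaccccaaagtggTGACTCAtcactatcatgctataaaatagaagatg
Mmp12, chr9:7347274-7347373: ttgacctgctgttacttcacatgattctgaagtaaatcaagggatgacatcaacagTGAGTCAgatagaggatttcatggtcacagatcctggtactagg
Mmp3, chr9:7445722-7445821: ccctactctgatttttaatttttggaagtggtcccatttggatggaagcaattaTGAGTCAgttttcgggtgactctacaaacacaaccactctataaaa
The word began 35 bases before the start in Mmp13, 44 in Mmp12 and 46 in Mmp3. No member window held the PPAR response element as a perfect direct repeat, which 0.0396% of all windows held, the cyclic AMP response word TGACGTCA, which 1.79% held, or the serum response element as a perfect word, which 0.0639% held. The TATA word TATAAA was found in 6 of the 31 windows, beside 13.6% of all windows. A match is a description of letters, not evidence of a bound factor, and the absence of a match speaks only of these windows.

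In TD, most of the expressed members were higher than in WT. Of the 41 members with enough reads to be tested, 28 were higher and 0 were lower, beside 15.1% of all 15117 tested genes higher and 14.2% lower (edgeR's quasi-likelihood test, Benjamini-Hochberg adjusted over all tested genes). Log2 fold changes are given below ± their standard error (SE). At an unadjusted p under 0.05, 32 members differed. The share of all genes at that threshold was not taken, so this count cannot be judged alone. DESeq2 called 29 higher and 0 lower, beside 15.5% and 15.6% of all genes. The members higher in TD were 8 of 14 MMPs, 3 of 4 TIMPs, 9 of 13 ADAMTS proteases, 4 of 5 ADAMTS-like genes and 4 of 5 lysyl oxidases. Their median log2 fold change over the 41 was 0.63, against 0.01 over all tested genes. In 26 members each TD library lay above each WT library, as it did in 15.8% of all genes. Without TD replicates 3 and 4, the libraries with the highest muscle marker sums, 15 members were higher beside 5.34% of all genes, and 0 were lower.

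Fewer members were called in TA against WT. There 7 were higher and 2 lower, beside 6.72% and 4.41% of all tested genes, and the median log2 fold change was 0.21 against -0.01 over all genes. The 7 were the proteases Mmp2, Mmp11, Mmp14, Adamts7, Adamts15 and Adamts19 and the inhibitor Timp2, and the 2 were Mmp12 and Adamts1. No overlap between TA and WT libraries, with TA higher, was seen in 4 members, beside 7.71% of all genes. Single libraries moved the count of higher members by more than 1.5 times. It went to 3 without WT replicate 1 or 4, beside 4.54% and 5.16% of all genes. Without TA replicate 1, 3 or 4 it was 4, beside 4.8%, 5.72% and 5.81%. Without TA replicate 2 it was 13, beside 7.66%. The count of lower members was 0 without WT replicate 3 or TA replicate 1 or 2, beside 3.44%, 3.09% and 4.91% of all genes. It was 5 without TA replicate 3, beside 3.85%. It was 1 without WT replicate 1 or 2 or TA replicate 4, beside 2.99%, 3.87% and 4.4%.

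Set directly against TA, TD had 20 members higher and 1 lower, beside 7.33% and 9.37% of all tested genes. Higher were 6 MMPs, 1 TIMP, 7 ADAMTS proteases, 1 ADAMTS-like gene and each of the 5 lysyl oxidases, and Mmp28 was lower. The median log2 fold change was 0.43 against 0.02 over all genes. The libraries did not overlap, with TD higher, in 13 members, beside 9.32% of all genes. The count of 20 higher members also rested on single libraries, and the share of all genes fell with it. The count was 13, beside 5.1% of all genes, without TA replicate 1 and 9, beside 3.75%, without TA replicate 2. Without TD replicate 3 it was 11, beside 4.11%, and without TD replicate 4 it was 8, beside 3.53%. It was 3, beside 1.19% of all genes, without TD replicates 3 and 4 together.

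**Figure D1:**
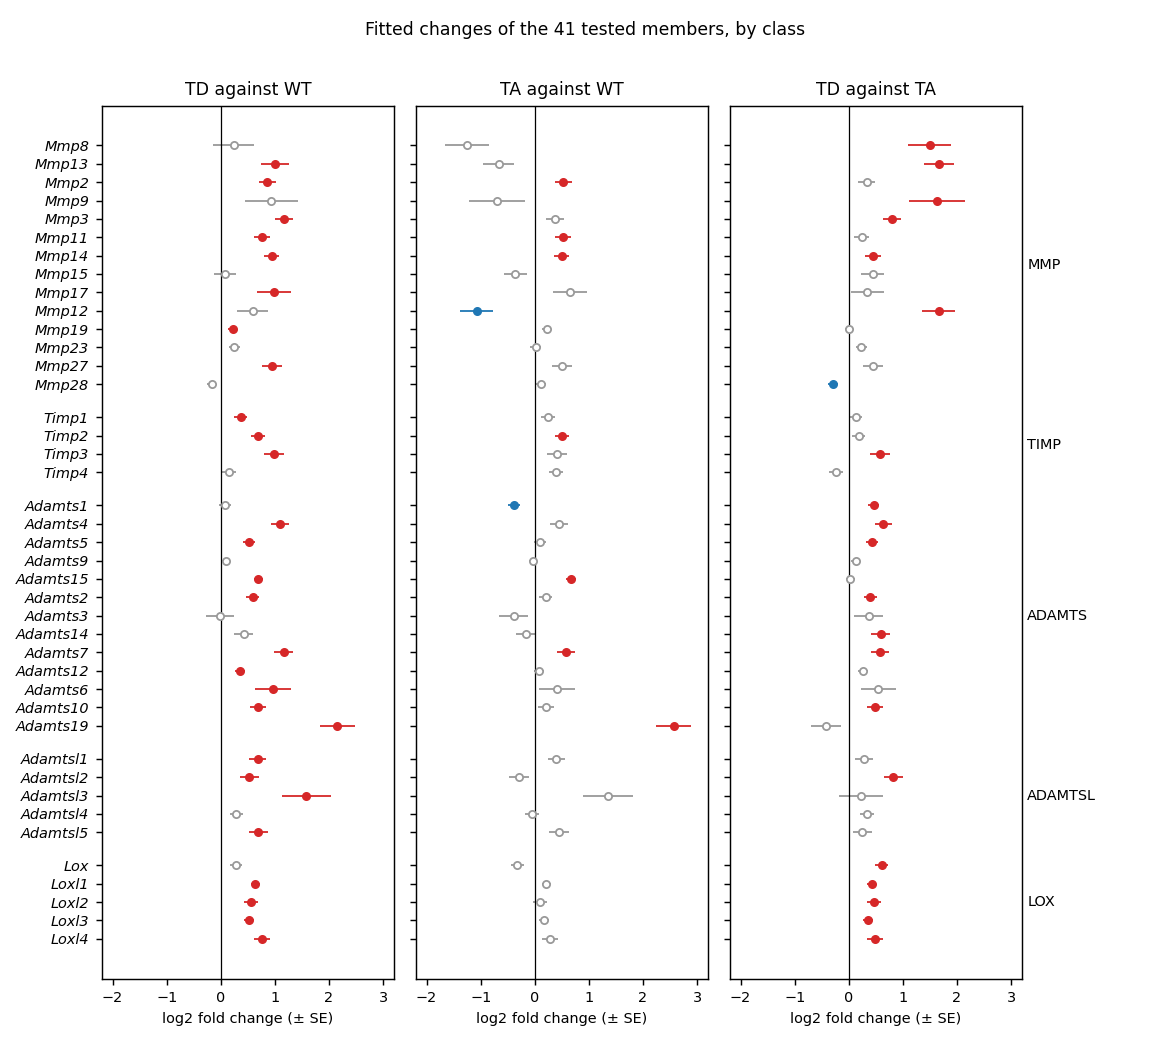
Log2 fold change with its standard error (x axis) of the 41 tested members (y axis, grouped by class) in TD against WT, TA against WT and TD against TA, filled red where higher and filled blue where lower at an adjusted p under 0.05, open grey where not called. The 28 called members of the first panel lie to the right of 0, and the second panel holds 7 to the right and 2 to the left.

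Summed over a class, each TD library had a higher level than each WT library in all 5 classes, with no test of the sums. The 16 MMPs together stood at 977, 1065, 1180.5 and 985 CPM in WT, 1457, 966, 1770.2 and 1422 CPM in TA and 1625, 1749.5, 1965 and 2034 CPM in TD. TA libraries spread from just under the lowest WT library (replicate 2) to within the TD range (replicate 3). The 4 TIMPs summed to 354, 416, 363 and 319 CPM in WT, 511, 409.6, 597 and 442 CPM in TA and 501, 538, 555 and 589 CPM in TD. ADAMTS proteases had 1443, 1628, 1688 and 1536 CPM, 1890.5, 1473, 2007 and 1793 CPM and 2020.2, 2127, 2318 and 2417 CPM in the same order. Lysyl oxidases were the class that was lower in TA on average, with 2594, 2944, 3213 and 2714 CPM in WT, 2672, 2064, 2913 and 2234 CPM in TA and 3398, 3719, 3740.2 and 3773 CPM in TD. The mean of TD was 1.28 times that of WT and 1.48 times that of TA. For ADAMTS-like genes the means were 116 ± 14.4 (SD, n = 4) CPM in WT, 121 ± 24.5 (SD, n = 4) CPM in TA and 165 ± 16.7 (SD, n = 4) CPM in TD. These sums are led by few genes, since Mmp2 held 50.2% to 54.2% of the MMP reads, Timp2 63.7% to 68.1% of the TIMP reads and Lox 74.1% to 79.9% of the lysyl oxidase reads. These shares are not corrected for length.

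The marker lists moved beside them. The fibroblast and preadipocyte markers were at 10750.0, 14249, 13235 and 11636 CPM in WT, 17147, 12294, 21881 and 17127 CPM in TA and 18504, 20899, 24982 and 27024 CPM in TD, in replicate order. The adipocyte markers were at 29250.0, 26322, 25965 and 28678 CPM, 26780.0, 31288, 23775 and 29141 CPM and 20417, 20230.0, 19147 and 17877 CPM. TD libraries were above WT in the fibroblast sum and below WT in the adipocyte sum with no overlap. The fibroblast sum was led by the collagen gene Col3a1, with means of 7149 CPM in WT, 10410 CPM in TA and 13790 CPM in TD. Col1a1, another collagen gene of the list, had means of 2837, 3075 and 4686 CPM. Much of the fibroblast sum is thus itself RNA of matrix proteins. TA replicate 2, lowest in the MMP sum of its genotype, was also lowest in the fibroblast sum and highest in the adipocyte sum. In these bulk libraries, a larger number of cells of a type and more RNA per cell cannot be told apart. The part of the cell mixture in the members' values was not tested.

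**Figure D2:**
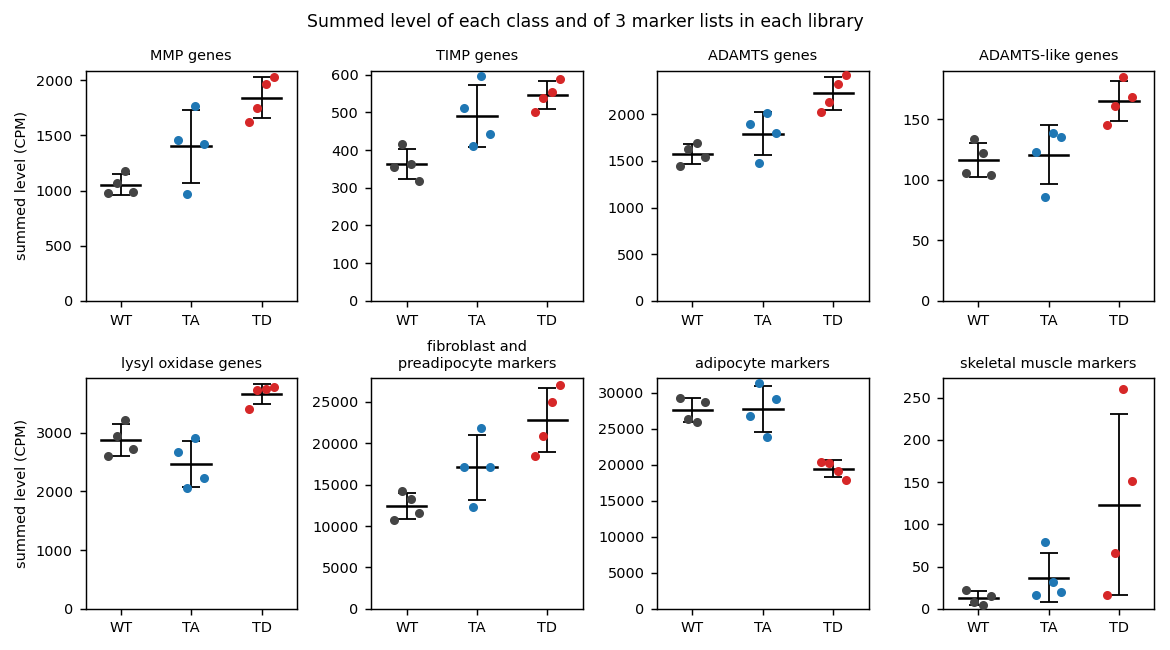
Summed level (y axis, CPM) of the 5 classes and of 3 marker lists in WT, TA and TD, with a point for each library, a line for the mean and a bar for the SD (n = 4). TD points lie above WT points in the 5 classes and in the fibroblast list, and below them in the adipocyte list.

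Between genes, levels are compared only per length, as CPM per kilobase of annotated exon (RPKM). Lox led by far, with a mean of 479 ± 43.7 RPKM in WT, 383 ± 70.5 RPKM in TA and 583 ± 28.7 RPKM in TD. Mmp2 followed at 157 ± 17.5, 225 ± 59.6 and 283 ± 34 RPKM. Timp1 came next in WT at 96.3 ± 8.71 RPKM, against 70.2 ± 1.91 RPKM for Loxl1, 59.3 ± 7.52 for Timp2, 57.7 ± 6.31 for Mmp3 and 55.9 ± 12.2 for Loxl2. In TD the mean of Mmp3 was 130.2 ± 22.6 RPKM and that of Timp1 125 ± 22.5 RPKM, a difference smaller than the SD between the libraries. The strongest ADAMTS protease per length was Adamts2, with 48.5 ± 6.6, 55.7 ± 9.21 and 73.2 ± 7.34 RPKM in WT, TA and TD. Among the ADAMTS-like genes it was Adamtsl4, with 10.2 ± 2.0, 9.87 ± 1.23 and 12.5 ± 1.56 RPKM. Mmp15, Adamts3, Adamts6, Adamts19 and Adamtsl3 stayed under 1 RPKM in each library.

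**Figure D3:**
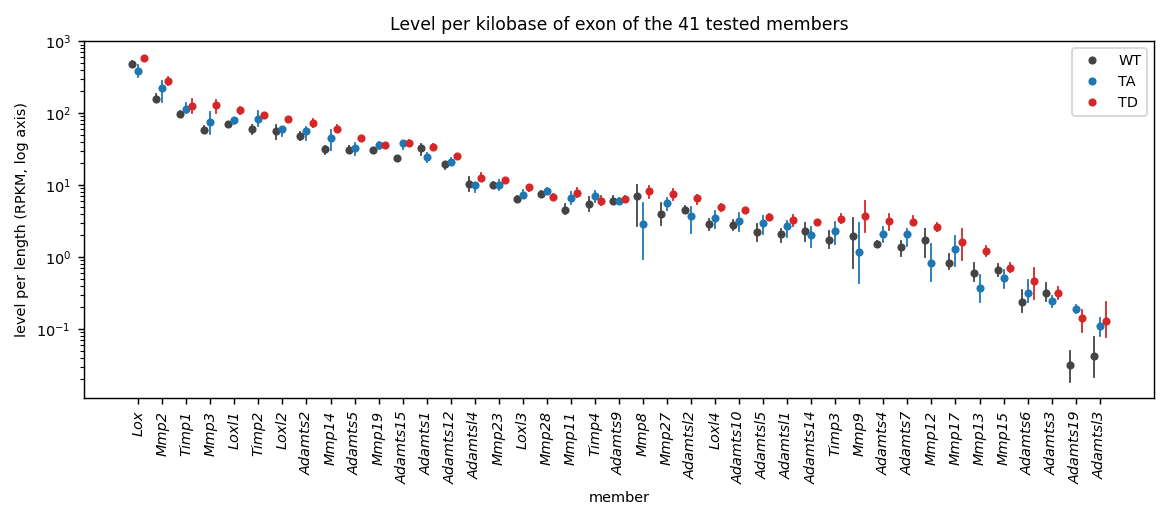
Level per length (y axis, RPKM, log scale) of the 41 tested members, ordered by their mean (x axis), with a point for the mean of 4 libraries and a line from the lowest to the highest library. Lox and Mmp2 stand at the left, and Adamts19 and Adamtsl3, under 1 RPKM, at the right.

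Among the MMPs, the gelatinase Mmp2, which digests denatured and basement membrane collagen (chr8:92827291-92853420), was higher in both mutants. Its level was 477, 501, 613 and 522 CPM in WT replicates 1 to 4, 793, 479.5, 959 and 808 CPM in TA and 829, 892, 1058 and 1049.7 CPM in TD. The order of replicates is kept below. All TD libraries exceeded all WT libraries, and TA replicate 2 fell within the WT range. The change was 0.86 ± 0.16 on the log2 scale (adjusted p = 0.000942) in TD against WT, and 0.52 ± 0.16 on the log2 scale (adjusted p = 0.041) in TA against WT. The call in TA was lost without any one of WT replicates 1, 2 and 4, TA replicates 1, 3 and 4 and TD replicates 2 and 3, with adjusted p from 0.0509 to 0.12. Mmp14, the membrane-anchored collagenase that also activates the Mmp2 proenzyme (chr14:54431612-54445364), had 180.5, 211, 202 and 162 CPM in WT, 274, 184, 343 and 263 CPM in TA and 323, 347, 377 and 403 CPM in TD. It was higher in TD than in WT (log2 fold change 0.94 ± 0.14, adjusted p = 0.000261), with no overlap. It was also higher in TA than in WT (log2 fold change 0.49 ± 0.14, adjusted p = 0.033) and in TD than in TA (log2 fold change 0.45 ± 0.14, adjusted p = 0.0396). The call of TA against WT was lost without any one of WT replicates 1, 3 and 4 and TA replicates 1, 3 and 4. That of TD against TA was lost without any one of TA replicates 1, 2 and 4 and TD replicates 2, 3 and 4 (adjusted p up to 0.118).

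Mmp17, a membrane-type MMP held by a lipid anchor, had 4.98, 5.11, 7.19 and 4.55 CPM in WT, 5.67, 4.92, 13 and 10.5 CPM in TA and 6.07, 16.2, 8.68 and 12.3 CPM in TD. TD replicate 1 lay within the WT range and TD replicate 2 far above it. The change was 0.99 ± 0.31 on the log2 scale (adjusted p = 0.0249) against WT. It was lost without TD replicate 2 (adjusted p = 0.102) and also without TD replicate 4 or WT replicate 1, 2 or 4 (0.0511 to 0.0695). Mmp15, another membrane-type MMP, was not called in any comparison, with log2 fold changes of 0.08 ± 0.21 in TD against WT and -0.36 ± 0.21 in TA against WT.

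The stromelysin Mmp3, which cuts proteoglycans and can activate other MMPs (chr9:7445822-7455975), had the largest change against WT of the MMPs in TD. It was at 95.8, 102, 121 and 97.6 CPM in WT, 142, 91.8, 184 and 124 CPM in TA and 182, 225, 257 and 275 CPM in TD. TD was 2.26 times WT (log2 fold change 1.18 ± 0.17, adjusted p = 0.000187) and 1.73 times TA (log2 fold change 0.79 ± 0.17, adjusted p = 0.00413). TA against WT was 0.38 ± 0.17 with an adjusted p of 0.159. Each TD library was above each WT library, and TA replicate 3 reached the lowest TD library. Mmp11, a stromelysin with little activity on classical matrix proteins (chr10:75923222-75936496), had 11.1, 13.3, 15.4 and 10.9 CPM in WT, 15.7, 14.9, 22.1 and 19.9 CPM in TA and 19, 25.2, 22.2 and 19.1 CPM in TD. It was higher in TD (log2 fold change 0.76 ± 0.15, adjusted p = 0.00137) and in TA (log2 fold change 0.52 ± 0.15, adjusted p = 0.0319) than in WT. The call in TA was lost without any one of WT replicates 1 and 4 and TA replicates 3 and 4 (adjusted p 0.0843 to 0.102). Mmp11 shares 155 exon bases with Chchd10 on the opposite strand, a gene with 27522 counts in all against 3802 for Mmp11. The strand setting of the counting is not given. Chchd10 moved the other way, with a log2 fold change of -1.77 in TD against WT.

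Mmp13, a collagenase of fibrillar collagen and one of the chromosome 9 genes whose promoter is printed above, was rare. It had 1.25, 1.59, 2.18 and 1.37 CPM in WT, 0.643, 0.799, 1.5 and 1.06 CPM in TA and 3.12, 2.75, 3.78 and 3.17 CPM in TD, resting on 11 to 71 counts per library. No TD library overlapped either other genotype, whereas WT and TA overlapped. TD was 2.0 times WT (log2 fold change 1.0 ± 0.27, adjusted p = 0.0099) and 3.17 times TA (log2 fold change 1.67 ± 0.28, adjusted p = 0.000939). TA against WT was -0.67 ± 0.29 on the log2 scale and was not called (adjusted p = 0.16). The call of TD against WT was lost without TD replicates 3 and 4 together (adjusted p = 0.127). Mmp27, at the other side of the same cluster (chr9:7571396-7581885), had 7.42, 12.3, 8.97 and 6.08 CPM in WT, 9.94, 11.8, 14.8 and 12.7 CPM in TA and 19.8, 13.5, 16.4 and 17.7 CPM in TD. TD exceeded WT with no overlap (log2 fold change 0.95 ± 0.19, adjusted p = 0.0014).

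Mmp19, which is widely expressed in connective tissue (chr10:128790910-128800824), differed by little. It had 107, 112, 109 and 109 CPM in WT, 142, 117, 135 and 112 CPM in TA and 130.1, 121, 124 and 131 CPM in TD. TD was called higher than WT at a change of 0.22 ± 0.08 on the log2 scale (adjusted p = 0.0427), a call that 13 of 21 alternatives removed. Mmp19 shares 789 exon bases with Tmem198b on the opposite strand. Mmp28 was lower in TD than in TA, at 26.2 ± 2.43 CPM against 31.9 ± 2.34 CPM (SD, n = 4), a change of -0.29 ± 0.09 on the log2 scale (adjusted p = 0.0354). This call was lost without any one of TA replicates 1 and 2 and TD replicates 1, 2 and 3 (adjusted p 0.0752 to 0.116) and under scaling by library totals. Mmp23 was not called, with 23.4 ± 2.55 CPM in WT and 27.8 ± 0.732 CPM in TD.

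**Figure D4:**
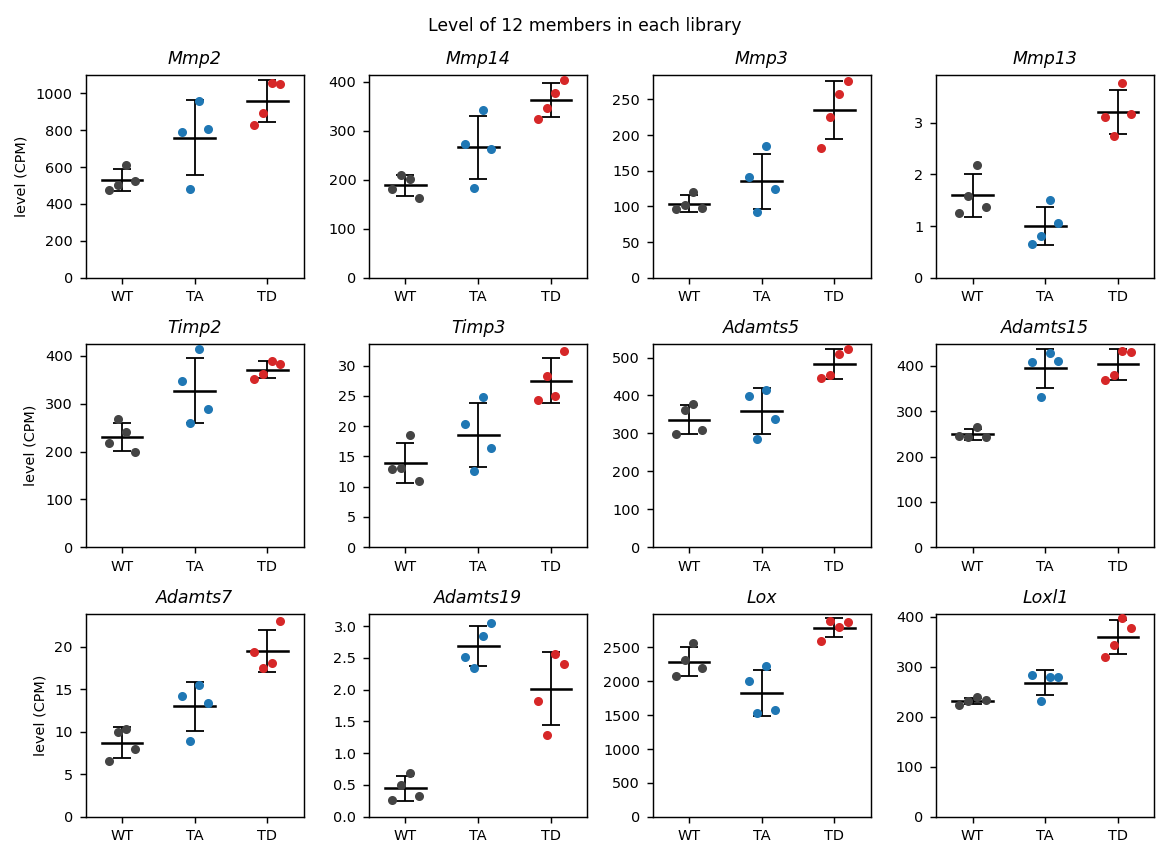
Level (y axis, CPM, each panel from 0) of 12 members in WT, TA and TD, with a point for each library, a line for the mean and a bar for the SD (n = 4). TD points of Mmp3, Mmp13, Adamts7 and Loxl1 lie above the WT points, and in Adamts15 and Adamts19 both mutants do.

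A further 3 MMPs, the collagenase Mmp8, the gelatinase Mmp9 and the elastase Mmp12, are best known from myeloid cells, and their means were lowest in TA. Their order of means, TA below WT below TD, was that of 11 tested members in all, Mmp13, Lox and Adamts1 among them. Mmp8 (chr9:7558456-7568485) had 13.5, 23.1, 24.3 and 6.47 CPM in WT, 5.85, 2.28, 13.6 and 6.39 CPM in TA and 23.7, 18.2, 16.1 and 21.6 CPM in TD. TD and TA were apart and WT spread over both. TD was 2.81 times TA (log2 fold change 1.49 ± 0.40, adjusted p = 0.0186), a call lost without TA replicate 1 (adjusted p = 0.0552). TD against WT was not called (log2 fold change 0.23 ± 0.38). TA against WT was -1.26 ± 0.40 on the log2 scale (adjusted p = 0.0553). It was called without TA replicate 3 (adjusted p = 0.00656) or WT replicate 4 (0.0145). Mmp12 (chr9:7344381-7369499) had 10.5, 14.6, 17.9 and 7.34 CPM in WT, 4.39, 3.32, 11.1 and 5.11 CPM in TA and 20.4, 21.8, 16.8 and 16.9 CPM in TD. Its TD libraries were all above its TA libraries (log2 fold change 1.66 ± 0.30, adjusted p = 0.00173). TA was below WT (log2 fold change -1.07 ± 0.31, adjusted p = 0.032) with an overlap at TA replicate 3. The lower level in TA was no longer called without any one of WT replicates 2 and 3 and TA replicates 1, 2 and 4 (adjusted p 0.0657 to 0.107).

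Mmp9 (chr2:164940780-164955850) had 5.86, 12.4, 6.74 and 2.47 CPM in WT, 2.98, 1.54, 10.4 and 2.0 CPM in TA and 13.9, 9.81, 7.88 and 21.2 CPM in TD. The libraries of each pair of genotypes overlapped, TA replicate 3 standing apart from the other TA libraries. TD was called higher than TA (log2 fold change 1.63 ± 0.52, adjusted p = 0.0396), but this was lost without any one of WT replicates 1 and 3, TA replicates 1, 2 and 4 and TD replicates 1 and 4 (adjusted p 0.0501 to 0.137) and with DESeq2. Without TA replicate 3, TA was called lower than WT (adjusted p = 0.0309).

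Beside these 3 genes, the 12 macrophage markers, led by Lyz2, summed to 461, 881, 557 and 297 CPM in WT, 294, 152, 648 and 347 CPM in TA and 954, 787, 707 and 703 CPM in TD. WT replicate 4 and TA replicate 2 were the lowest of their genotype in the macrophage sum and in each of the 3 genes. TA replicate 3 was the highest of TA in all 4 measures. In WT, replicate 2 was the highest in the macrophage sum and in Mmp9, but replicate 3 in Mmp8 and Mmp12. In TD, replicate 4 was the lowest in the macrophage sum but the highest in Mmp9. TD replicate 1 was the highest in the sum and in Mmp8, and TD replicate 2 in Mmp12. Of the macrophage markers, 2 were higher in TD than in WT, 0 differed between TA and WT and 4 were higher in TD than in TA. The 8 neutrophil markers summed to only 2.9 to 4.61 CPM in WT, 5.28 to 6.64 CPM in TA and 3.14 to 4.77 CPM in TD. Ly6g and Retnlg, which define neutrophils, had 0 counts in each library. Of the 2 neutrophil markers tested, 0 differed between TD and WT, and S100a8 was higher in TA than in WT. S100a8 was also lower in TD than in TA (log2 fold change -0.95 ± 0.23, adjusted p = 0.00975). The part of macrophages in the levels of Mmp8, Mmp9 and Mmp12 was not tested.

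**Figure D5:**
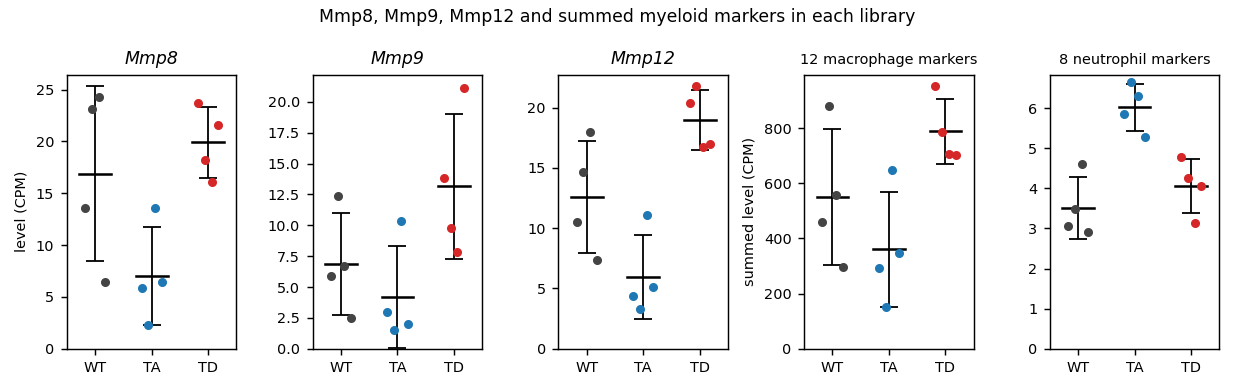
Level (y axis, CPM) of Mmp8, Mmp9 and Mmp12, and summed level of 12 macrophage and 8 neutrophil markers, in WT, TA and TD, with a point for each library, a line for the mean and a bar for the SD (n = 4). TA has the lowest mean in the 3 genes and in the macrophage sum, and the neutrophil sum stays under 7 CPM.

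Inhibitors were higher in TD than in WT in 3 of 4 cases. Timp2, which blocks MMPs and also holds the Mmp2 proenzyme on Mmp14 for its activation (chr11:118301069-118355740), had 219, 267, 240.04 and 199 CPM in WT, 348, 259, 414 and 288 CPM in TA and 351, 362, 389.9 and 383 CPM in TD. It was higher than WT in TD (log2 fold change 0.68 ± 0.12, adjusted p = 0.000803) and in TA (log2 fold change 0.50 ± 0.12, adjusted p = 0.014), with no overlap in TD and with TA replicate 2 inside the WT range. Timp3, the matrix-bound inhibitor that also blocks ADAMTS proteases (chr10:86300372-86349506), had 12.9, 13.1, 18.6 and 11 CPM in WT, 20.4, 12.5, 24.8 and 16.4 CPM in TA and 24.4, 28.3, 25.1 and 32.5 CPM in TD. TD was about 1.98 times WT (log2 fold change 0.98 ± 0.18, adjusted p = 0.00105), with no overlap. It was higher than TA (log2 fold change 0.57 ± 0.18, adjusted p = 0.0421), a call lost without any one of WT replicate 1, TA replicates 1, 2 and 4 and TD replicates 2, 3 and 4.

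Timp1, on the X chromosome, was higher in TD than in WT by a smaller amount, at 111 ± 19.98 CPM against 85.6 ± 7.75 CPM (SD, n = 4). The change of 0.37 ± 0.12 on the log2 scale (adjusted p = 0.0295) was lost without any one of WT replicates 1, 3 and 4 and TD replicates 3 and 4 (adjusted p 0.0536 to 0.127). Timp4, an inhibitor known from heart and fat, was not called, with 32.3 ± 6.36 CPM in WT, 42.2 ± 5.77 CPM in TA and 35.8 ± 3.95 CPM in TD. Its change in TA against WT was 0.39 ± 0.13 on the log2 scale (adjusted p = 0.0697), and it was called without TA replicate 3 (0.0297), without WT replicate 2 (0.0223), by DESeq2 (0.049) and with no filter on low counts (0.00316). It shares 90 exon bases with Syn2 on the opposite strand, which has more counts and was lower in TD.

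Of the ADAMTS proteases that cut proteoglycans such as aggrecan and versican, Adamts5 had the highest level per length in TD, at 44.7 ± 3.56 RPKM. It (chr16:85856173-85901828) had 298, 362, 377 and 309 CPM in WT, 399, 284, 415 and 338 CPM in TA and 446, 455, 508 and 524 CPM in TD. TD lay above both other genotypes without overlap, by 0.52 ± 0.11 on the log2 scale (adjusted p = 0.00279) against WT and 0.43 ± 0.11 on the log2 scale (adjusted p = 0.0166) against TA. The latter call was lost without TD replicate 3 or 4. Adamts4, the other main aggrecanase (chr1:171250421-171260637), had 7.47, 7.05, 6.54 and 7.95 CPM in WT, 9.18, 7.75, 12.7 and 9.89 CPM in TA and 11.4, 15.2, 16 and 19.2 CPM in TD. It was 2.13 times as high in TD as in WT (log2 fold change 1.09 ± 0.17, adjusted p = 0.000269) with no overlap. It was higher than in TA (log2 fold change 0.64 ± 0.16, adjusted p = 0.0141), a call lost without TA replicate 2 or TD replicate 4.

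Adamts15, a versican-cutting protease (chr9:30899155-30922452), rose in both mutants. It had 245, 243, 266 and 242 CPM in WT, 409, 332, 428 and 411 CPM in TA and 369, 379.99, 433 and 431 CPM in TD. Each mutant library exceeded each WT library, with 0.70 ± 0.09 on the log2 scale (adjusted p = 9.24e-05) for TD and 0.67 ± 0.09 on the log2 scale (adjusted p = 0.000105) for TA. TD against TA was 0.03 ± 0.09. Both calls held in all 21 alternatives. Its neighbour Adamts8 had 2 counts in all. Adamts1, beside Adamts5 on chromosome 16, had a mean of 172 ± 24.1 CPM in WT, 132 ± 15.8 CPM in TA and 181 ± 19 CPM in TD (SD, n = 4). It was lower in TA than in WT (log2 fold change -0.39 ± 0.11, adjusted p = 0.0313), a call lost without any one of WT replicates 1, 3 and 4 and TA replicates 1 and 2 (adjusted p 0.0551 to 0.1). It was higher in TD than in TA with no overlap (log2 fold change 0.46 ± 0.11, adjusted p = 0.0104). Adamts9 was not called in any comparison, at 91.8 ± 9.5 CPM in WT, 89.6 ± 7.01 CPM in TA and 97.9 ± 5.22 CPM in TD.

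Adamts2, Adamts3 and Adamts14 remove the N-terminal propeptide of procollagens. Adamts2 (chr11:50602084-50807573) had 399, 517, 496 and 402 CPM in WT, 533, 401, 606 and 541 CPM in TA and 599, 671, 703 and 764 CPM in TD. It was higher in TD than in WT with no overlap (log2 fold change 0.59 ± 0.12, adjusted p = 0.00201). It was higher than in TA (log2 fold change 0.39 ± 0.12, adjusted p = 0.0357), a call lost without any one of TA replicates 1, 2 and 4 and TD replicates 2, 3 and 4. Adamts14 (chr10:61197112-61273438) had 11.1, 12.5, 15.2 and 8.77 CPM in WT, 10.3, 7.2, 11 and 13.7 CPM in TA and 15.6, 15.8, 17.2 and 15.1 CPM in TD. The TD libraries were all above those of TA (log2 fold change 0.59 ± 0.18, adjusted p = 0.0301). This call was lost without any one of TA replicates 1 and 2 and TD replicates 2, 3 and 4. TD against WT gave 0.42 ± 0.17 with an adjusted p of 0.0791. Adamts3, with 1.11 to 2.39 CPM in the libraries, was not called.

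Adamts7 and Adamts12, a related pair that cuts cartilage oligomeric matrix protein, were both higher in TD. Adamts7 (chr9:90163069-90208071) had 6.54, 10.03, 10.4 and 8.0 CPM in WT, 14.2, 8.92, 15.5 and 13.4 CPM in TA and 19.4, 17.6, 18.1 and 23.1 CPM in TD. TD was 2.23 times WT (log2 fold change 1.16 ± 0.17, adjusted p = 0.000218) and above TA (log2 fold change 0.58 ± 0.17, adjusted p = 0.0254), without overlap in either case. TA was above WT (log2 fold change 0.58 ± 0.17, adjusted p = 0.041) with an overlap at TA replicate 2. The call of TA against WT was lost without any one of WT replicates 1 and 4, TA replicates 1, 3 and 4 and TD replicates 1, 2 and 3, and under scaling by library totals (adjusted p = 0.0554) or in the fit to the 8 libraries compared (0.078). That of TD against TA was lost without TA replicate 2 or TD replicate 4. Adamts7 overlaps Tbc1d2b on the opposite strand over 122 exon bases. Tbc1d2b, with 19153 counts against 2993, was also higher in TD than in WT (log2 fold change 0.58). With the strand setting of the counting not given, it is not known to which gene reads of the shared bases were counted. Adamts12 (chr15:11064790-11349231) had 184, 213, 232 and 232 CPM in WT, 259, 206, 244 and 205 CPM in TA and 258, 270.2, 285 and 288 CPM in TD. TD exceeded WT with no overlap (log2 fold change 0.35 ± 0.09, adjusted p = 0.00926).

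Adamts10, which binds fibrillin microfibrils (chr17:33524204-33553782), had 19.6, 27.3, 22.1 and 22.6 CPM in WT, 19, 21.3, 33.3 and 31.8 CPM in TA and 35.7, 37.7, 37 and 37.3 CPM in TD. The TD libraries were nearly equal and above all others, by 0.69 ± 0.15 on the log2 scale (adjusted p = 0.00296) against WT and 0.48 ± 0.15 on the log2 scale (adjusted p = 0.0361) against TA. The latter call was lost without any one of TA replicates 1 and 2 and each of the TD libraries. Adamts6 (chr13:104287835-104496695) had 1.35, 1.99, 1.34 and 2.74 CPM in WT, 1.87, 2.09, 3.79 and 2.11 CPM in TA and 2.04, 3.4, 3.46 and 5.57 CPM in TD. The genotypes overlapped, and TD against WT gave a change of 0.96 ± 0.32 on the log2 scale (adjusted p = 0.0346). This was lost without any one of WT replicates 1, 2 and 3 and TD replicates 2, 3 and 4 (adjusted p 0.0514 to 0.153).

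Adamts19, a protease known from heart valve development (chr18:58836667-59054060), had the largest change of any member. It was nearly silent in WT, with 5, 10, 14 and 6 counts, and had 43, 38, 51 and 55 counts in TA and 32, 24, 48 and 41 counts in TD. In CPM this was 0.259, 0.497, 0.694 and 0.329 in WT, 2.52, 2.34, 2.84 and 3.06 in TA and 1.82, 1.29, 2.55 and 2.4 in TD. No mutant library overlapped WT. TA was 5.93 times WT (log2 fold change 2.57 ± 0.32, adjusted p = 7.67e-05) and TD 4.45 times WT (log2 fold change 2.15 ± 0.33, adjusted p = 0.000271). The call held in each of the alternatives in which the gene was tested.

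ADAMTS-like genes were higher in TD than in WT in 4 of 5 cases. Adamtsl1 (chr4:85514172-86428385) had 20.4, 27.1, 30.9 and 27.2 CPM in WT, 38.5, 23.9, 40.5 and 36 CPM in TA and 34.6, 37.1, 48.6 and 48.8 CPM in TD. TD was above WT with no overlap (log2 fold change 0.68 ± 0.16, adjusted p = 0.00493). Adamtsl2, a ligand of fibrillin and of latent TGF-β binding protein (chr2:27079379-27108981), had 32.9, 37.9, 41.4 and 33.4 CPM in WT, 26.7, 17.3, 34.5 and 39.95 CPM in TA and 43.7, 58.3, 54.3 and 53.9 CPM in TD. Its TD libraries were above those of WT (log2 fold change 0.53 ± 0.18, adjusted p = 0.0329) and TA (log2 fold change 0.82 ± 0.18, adjusted p = 0.00537) without overlap. The call against WT was lost without any one of WT replicates 1 and 4 and TD replicates 2, 3 and 4 (adjusted p 0.0721 to 0.095).

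Adamtsl5, another microfibril ligand (chr10:80339110-80348412), had 9.96, 13.8, 9.81 and 7.84 CPM in WT, 14, 9.78, 17.8 and 14.9 CPM in TA and 15.6, 15.3, 18.5 and 17.8 CPM in TD. TD exceeded WT with no overlap (log2 fold change 0.69 ± 0.17, adjusted p = 0.0074). The lowly expressed Adamtsl3 (chr7:82335694-82614450) had 5, 6, 12 and 3 counts in WT, 15, 10, 15 and 20 in TA and 13, 11, 34 and 15 in TD. In CPM these were 0.259, 0.298, 0.595 and 0.164 CPM, 0.877, 0.615, 0.835 and 1.11 CPM and 0.738, 0.593, 1.81 and 0.879 CPM. TD replicate 2 reached the WT range, and TD had a change of 1.58 ± 0.45 on the log2 scale (adjusted p = 0.0156). It was lost without TD replicate 3 (adjusted p = 0.0868) or WT replicate 4 (0.0502). Adamtsl4 (chr3:95676201-95687917), with the highest level of the class, had 41.9, 54.9, 39.7 and 35.3 CPM in WT, 43.1, 33.9, 45.5 and 43.4 CPM in TA and 50.4, 50.1, 62.1 and 47.3 CPM in TD. It was not called, with log2 fold changes of 0.29 ± 0.13 in TD against WT and 0.34 ± 0.13 in TD against TA. Both were called once WT replicate 2 was left out (adjusted p = 0.0117 and 0.038).

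Lysyl oxidases were the one class whose every member was higher in TD than in TA. Lox, the founding enzyme of collagen and elastin cross-linking (chr18:52516067-52529867), had 2077, 2315, 2567 and 2199 CPM in WT, 1999.6, 1532, 2226 and 1571 CPM in TA and 2593, 2888, 2799.9 and 2879 CPM in TD. The TD libraries lay above both other genotypes. TD was 1.52 times TA (log2 fold change 0.61 ± 0.12, adjusted p = 0.00217), a call that held in all 21 alternatives. Against WT, TD gave 0.29 ± 0.11 (adjusted p = 0.0725), called by DESeq2 (0.0405) and, in edgeR, in 5 alternatives, among them the omission of TA replicate 2 or 3. TA gave -0.32 ± 0.11 (adjusted p = 0.0838). It was called lower in TA by DESeq2 (adjusted p = 0.0265), with no filter on low counts (0.0208) and without TA replicate 3 (0.0154).

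Loxl1, needed for elastic fibre renewal (chr9:58287738-58313186), had 224, 231, 239 and 233 CPM in WT, 282, 231, 279 and 279 CPM in TA and 320.03, 344, 397 and 377 CPM in TD. TD exceeded WT (log2 fold change 0.63 ± 0.08, adjusted p = 0.000119) and TA (log2 fold change 0.43 ± 0.08, adjusted p = 0.00272) without overlap. Loxl2, which cross-links collagen IV (chr14:69609068-69695834), had 254, 354, 365 and 238 CPM in WT, 344, 259.6, 350.3 and 336 CPM in TA and 427, 426, 474 and 449.7 CPM in TD. It too was above WT (log2 fold change 0.55 ± 0.13, adjusted p = 0.00467) and TA (log2 fold change 0.46 ± 0.13, adjusted p = 0.0227) in each TD library. The call against TA was lost without TA replicate 2 or TD replicate 3 or 4.

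The other two were expressed at lower levels. Loxl3 (chr6:83034173-83052562) had 29.1, 29.9, 28 and 32.4 CPM in WT, 31.4, 30.5, 39.3 and 33.7 CPM in TA and 38.3, 42.4, 45.7 and 45.3 CPM in TD. TD and WT did not overlap (log2 fold change 0.52 ± 0.09, adjusted p = 0.000614) and TA replicate 3 reached TD (log2 fold change 0.35 ± 0.09, adjusted p = 0.0158). It shares 535 exon bases with Htra2 on the opposite strand, which was lower in TD than in WT (log2 fold change -0.32). Loxl4 (chr19:42593982-42612813) had 9.96, 13.4, 14 and 11.6 CPM in WT, 15, 10.8, 18.3 and 15.1 CPM in TA and 19.8, 18.1, 22.8 and 22.5 CPM in TD. TD and WT again did not overlap (log2 fold change 0.76 ± 0.15, adjusted p = 0.00127), with a smaller difference from TA (log2 fold change 0.49 ± 0.15, adjusted p = 0.0308). The TD against TA calls of Loxl3 and Loxl4 were each lost without TA replicate 2 or TD replicate 3 or 4. That of Loxl4 was lost also without TA replicate 1 or 4.

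The same libraries were at the extremes in many members. TA replicate 3 was the highest TA library in 31 of the 41 tested members and TA replicate 2 the lowest in 30. In TD, replicate 1 was the lowest in 24 and replicate 4 the highest in 18, and WT replicate 3 was the highest WT library in 22. In the fibroblast marker sum the highest and lowest TA libraries were likewise replicates 3 and 2, and the highest and lowest TD libraries replicates 4 and 1, whereas the highest WT library was replicate 2. With TA replicate 2 and TD replicate 4 left out, 25 members were higher in TD than in WT beside 11.5% of all genes. There 13 were higher and 0 lower in TA than in WT beside 7.4% and 4.64%, and 6 were higher in TD than in TA beside 1.71%. Leaving out TA replicate 2 alone added Mmp3, Timp3, Adamts4, Adamtsl1, Adamtsl5 and Loxl1 to the members higher in TA than in WT. Across the 12 single omissions, 22 of the 28 calls of TD against WT were kept each time. So were 3 of 9 of TA against WT (Timp2, Adamts15 and Adamts19) and 7 of 21 of TD against TA (Mmp3, Mmp12, Mmp13, Adamts1, Adamtsl2, Lox and Loxl1). The share of all genes' calls kept each time was not counted, so these numbers cannot be set against calls in general.

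Other genes of matrix turnover were read from 4 lists. Of all tested genes, 15.1% rose and 14.2% fell in TD against WT, and 6.72% rose and 4.41% fell in TA against WT. In TD against TA these shares were 7.33% and 9.37%. Of 24 tested proteases of other families, 12 rose and 0 fell in TD against WT, with a median log2 fold change of 0.41. The plasminogen activators Plau, at 16.2 ± 3.08 CPM in WT and 34.9 ± 0.814 CPM in TD (log2 fold change 1.10 ± 0.18, adjusted p = 0.000425), and Plat, at 9.24 ± 1.75 and 18.6 ± 3.26 CPM (log2 fold change 1.01 ± 0.16, adjusted p = 0.000385), had the largest rises among the genes of at least 5 CPM. Tll1, named after its value was seen, rose more at a lower level, from 0.846 ± 0.0566 CPM in WT to 2.18 ± 0.374 CPM in TD (log2 fold change 1.36 ± 0.28, adjusted p = 0.00207). In TA 5 were higher than in WT and 0 lower, led by Adam12, a protease of mesenchymal cells, at 119.8 ± 15.8 CPM in WT and 277 ± 38.7 CPM in TA (log2 fold change 1.21 ± 0.13, adjusted p = 1.43e-05). In TD against TA 5 were higher and 2 lower, and both Adam12 (log2 fold change -0.67 ± 0.13, adjusted p = 0.00211) and Mme (log2 fold change -0.66 ± 0.10, adjusted p = 0.000486) fell.

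Of 19 tested inhibitors, receptors and activators, 12 rose and 3 fell in TD against WT. Serping1, the inhibitor of complement C1, rose from 601 ± 66 to 1365 ± 158 CPM (log2 fold change 1.18 ± 0.13, adjusted p = 5.87e-05). Bsg, the surface glycoprotein basigin known as an inducer of MMPs, was lower in both mutants, at 2769 ± 419 CPM in WT, 1383 ± 284 CPM in TA and 1316 ± 179 CPM in TD (log2 fold change -1.0 ± 0.15, adjusted p = 0.000275 in TA and log2 fold change -1.07 ± 0.15, adjusted p = 0.000145 in TD). In TA 7 were higher and 4 lower than in WT, and in TD against TA 10 were higher and 2 lower. The broad protease inhibitor A2m had 63.4 ± 14.6 CPM in TA and 156 ± 19.9 CPM in TD (log2 fold change 1.30 ± 0.15, adjusted p = 2.79e-05).

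Of 16 other enzymes that modify collagen or elastin, 9 rose and 2 fell in TD against WT. TA had 5 that rose and 2 that fell against WT, and in TD against TA 3 rose and 1 fell. Plod2, a lysyl hydroxylase that prepares collagen for stable cross-links, rose from 70.5 ± 17.1 CPM in WT to 109.8 ± 20.3 CPM in TA (log2 fold change 0.64 ± 0.15, adjusted p = 0.00964) and 134 ± 8.68 CPM in TD (log2 fold change 0.93 ± 0.15, adjusted p = 0.000351). Tgm2, a transglutaminase, fell from 353 ± 17.2 CPM in WT to 202 ± 27 CPM in TA (log2 fold change -0.80 ± 0.09, adjusted p = 2.07e-05) and 273 ± 14.4 CPM in TD (log2 fold change -0.37 ± 0.09, adjusted p = 0.00516).

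Of 21 tested matrix proteins on which these enzymes act, 19 rose and 0 fell in TD against WT, with a median log2 fold change of 0.78. TA had 8 that rose and 1 that fell against WT, and in TD against TA 8 rose and 0 fell. Elastin (Eln), a substrate of Lox, was at 61.2 ± 12.1 CPM in WT and 131 ± 16.6 CPM in TD (log2 fold change 1.09 ± 0.18, adjusted p = 0.000403). The microfibril protein Mfap4 rose from 10.4 ± 1.46 to 21.5 ± 5.41 CPM (log2 fold change 1.04 ± 0.24, adjusted p = 0.0038) and was also higher in TA (log2 fold change 0.83 ± 0.24, adjusted p = 0.0331). Decorin (Dcn) stands in this list and among the fibroblast markers. Without TD replicates 3 and 4, the counts higher in TD than in WT in the 4 lists were 7, 6, 4 and 10 in the order given here. There 5.34% of all tested genes were higher.

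The remaining members had too few reads for a test. Adamts17, with 72 counts in all, had 2, 3, 7 and 8 in WT, 8, 7, 11 and 5 in TA and 2, 9, 3 and 7 in TD. Mmp24 had 37 counts and shares 637 exon bases with BC029722, which had 6843. Adamts20 had 23 counts, of which TD replicates 2, 3 and 4 held 6, 3 and 6, and Mmp16 had 17, none of them in WT. Adamts13, which cleaves von Willebrand factor, had 3 counts in each of WT replicates 1 and 2, 1 in each of TA replicates 2, 3 and 4 and TD replicate 2 and 0 elsewhere. At this depth 3 counts correspond to 0.149 to 0.184 CPM, and such limits cover counting error only. Differences of these genes between genotypes were not tested. Among the 10 genes under the minimum, all 8 counts of Adamts16 were in WT replicate 2, and Mmp1a, Mmp1b and Mmp20, all 3 in the chromosome 9 cluster, had 0 counts.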

How the data were processed

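RNA of cultured adipocytes was measured in 4 WT, 4 TA and 4 TD libraries, grouped by the sample titles. Sequencing was done on a NovaSeq, the authors mapped reads to GRCm38 by HISAT2, and they deposited raw counts per gene, without normalization. The submitters' processing notes name bcl2fastq 2.17.1.14, cutadapt 1.9.1, HISAT2 2.0.1 and HTSeq 0.6.1, and the strand setting of the counting is not given in the sources used here. The deposited table and the 12 deposited single-library count files were equal.

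Libraries were scaled by TMM (factors 0.957 to 1.04). Genes were kept by filterByExpr (minimum count 10, minimum total 15), which left 15117 of 55573 genes and 41 of 46 members. A quasi-likelihood model of edgeR 4.0.16 in R 4.3.3 (limma 3.58.1) was fitted to the 12 libraries, with 1 dispersion estimate for all genotypes (common biological coefficient of variation 12.9%). The contrasts were TD against WT, TA against WT and TD against TA, two-sided, with Benjamini-Hochberg adjustment over all tested genes and an adjusted p under 0.05 as the call. The comparisons share libraries, so calls are set side by side and not overlapped. These steps were tested on simulated data. Counts of replicates differed by 4.95 to 38.7 chi-square units per degree of freedom over the 18 pairs, so each library counts once.

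Alternatives were RLE scaling and DESeq2 1.42.0, scaling by library totals, no filter, a mean of at least 50 counts, fits to the 8 libraries compared, a replicate block and the omission of each library. Positions, overlaps and exon lengths came from GENCODE M21 and promoters from RefSeq on GRCm38.p6. One overlap of a member with a neighbouring gene is not reported here. The members, the marker lists and the 4 lists of other matrix genes were chosen with earlier results of these data known. A member is given in full if called in a comparison with a log2 fold change of at least 0.5 in size and a mean of at least 1 CPM in its highest genotype, or if it has the highest level of its class or subclass. From the other lists, some but not all of the called genes with the 2 largest rises or falls and at least 5 CPM are named. S100a8 and the markers at 0 are named in addition.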

Additional observations from a re-analysis of the deposited data

Results flagged for a closer look

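In 141 groups of 4 libraries (the 41 tested members and the class sums in each genotype), 6 held a library whose gap to the nearest other, over the range of the group, passed Dixon's critical value. This is 4.26 per 100 groups, and chance alone flags about 1 in 20. For Mmp9, TA replicate 3 had 10.35 CPM against 1.54 to 2.98 CPM in the other TA libraries. Adamts6 had 3.785 CPM in the same library against 1.87 to 2.11 CPM. TA replicate 2 was low in Loxl1, with 230.6 CPM against 278.6 to 282.3 CPM, and in Loxl2, with 259.6 CPM against 336.3 to 350.3 CPM. WT replicate 3 had 266.2 CPM of Adamts15 against 242.2 to 244.8 CPM in the other WT libraries. The lysyl oxidase sum of TD replicate 1 was 3398 CPM against 3719 to 3773 CPM in the other TD libraries. TA replicates 3 and 2 also had the highest and the lowest fibroblast and macrophage marker sums of TA, and the part of the marker cells in these values was not tested.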

How the results depend on the processing

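The 28 members higher in TD than in WT became 24 to 32 under the other scalings, filters and fits. These settings had 8.57% to 18.8% of all genes higher and 6.98% to 17.7% lower. With 1 library left out the members became 23 to 31, beside 10.6% to 15.8% of all genes higher and 9.69% to 14.8% lower. In each of these settings 0 members were lower. Leaving out TD replicates 3 and 4, an alternative chosen after seeing the data, gave 15, beside 5.34% of all genes. In TA against WT the 7 higher and 2 lower members became 15 and 6 with no filter on low counts. The shares of all genes there were 4.54% and 3.41%. The members became 3 and 0 in the fit to 8 libraries, beside 5.35% and 3.06%. Without TA replicate 2 and TD replicate 4, also chosen after seeing the data, they became 13 and 0, beside 7.4% and 4.64%. Single omissions gave 3 to 13 higher, beside 4.54% to 7.66%, and 0 to 5 lower, beside 2.99% to 4.91%. In TD against TA the 20 higher members became 3 without TD replicates 3 and 4, beside 1.19% of all genes. Without TA replicate 2 and TD replicate 4 they became 6, beside 1.71%, and single omissions gave 8 to 24, beside 3.53% to 11.5%. The 1 lower member there, Mmp28, was not called under library totals, with no filter or in either of those omissions, which gave 0, and single omissions gave 0 to 1. These omissions leave fewer libraries. The cause of the other changes was not tested. Scaling by library totals moved the median log2 fold change of all genes to 0.08 in TD against WT and 0.10 in TD against TA, and the share of calls that were higher from 51.5% to 64.6% and from 43.9% to 64.7%. No call of a member turned direction. The minimum of the member rule left 41 genes at 100 counts and 56 with none. Replicate numbers did not pair the libraries, since 2 of 12 correlations between same-numbered libraries were over 0.1 and 5 of 24 best matches had the same number. A replicate block gave 27 higher and 0 lower, 7 and 2, and 20 and 1 in the 3 comparisons. The shares of all genes were 14.6% and 13.5%, 6.36% and 3.96%, and 7.4% and 9.06%. With the block Adamts7 in TA against WT (adjusted p = 0.0594) and Mmp19 in TD against WT (0.0564) were not called. Timp4 was called higher in TA with it (0.00782). In these libraries 3 counts stand for 0.149 to 0.184 CPM. Which genes were tested was decided by the filter on low counts, not by this level.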
